A study of Mus musculus with 8 samples.

Results

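The 35 genes described here follow the oligodendrocyte lineage, from its transcription factors and precursor receptors to the proteins and lipid enzymes of myelin. They were taken by gene symbol from the 24047 rows of the deposited count table, and all 35 had a row. The libraries were made from tdTomato-positive cells sorted as astrocytes from mouse somatosensory cortex, 4 libraries labelled WT and 4 labelled Ptch1cKO. WT mice carried Glast-CreERT2 and the Ai14 reporter, and Ptch1cKO mice carried these together with 2 floxed copies of Ptch1 (Ptch1fl/fl). Every mouse, control or mutant, received tamoxifen into the peritoneum (10 to 15 µL at 20 mg/ml) on each day from P12 to P14, and cells were collected at P23 to P25. Cre is driven by the promoter of Glast, a glutamate transporter of astrocytes, and a recombined cell passes the tdTomato reporter to all of its descendants. Nothing in the labels ties a library to its own animal, and p-values here measure only how far these samples spread, which may be technical. Counts scaled to library size with TMM factors (CPM) were 357 ± 122 for the targeted gene Ptch1 in the WT libraries and 223 ± 40.8 in the Ptch1cKO libraries (SD, n = 4 each). Those ranges overlapped, and the count covers the whole gene. The fold change of Ptch1 was 0.627 (unadjusted p = 0.00765, adjusted p = 0.349 by edgeR). By DESeq2 its adjusted p was 0.149, so neither test called Ptch1. The comparison asks which of these transcripts differ between libraries with and without floxed Ptch1, the gene of a receptor that restrains Hedgehog signalling. These counts do not show whether the receptor was lost.

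Oligodendrocytes wrap axons in compacted membrane, and they arise from precursor cells that persist in the cortex after birth. Olig2 and Sox10 set and hold the lineage, Pdgfra carries the growth signal of precursors, and cells that leave the precursor state pass through a stage marked by Gpr17, Bcas1 and Enpp6 before they make myelin. Sonic hedgehog induces Olig2 and Nkx2-2 in the embryonic ventral neural tube, where the first precursors form. Several of the 35 genes are also made elsewhere in the brain: astrocytes express Plekhb1, Qdpr, Ndrg1 and some Olig1 and Olig2, and pericytes or fibroblasts express Cspg4 and Pdgfra.

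Total counts ran from 4061274 to 7206462 per library, and 10954 genes passed the filter on low counts. The lineage label was checked against Mbp, Olig2 and Pdgfra, which were detected in all 8 libraries. Summed TPM (the authors' unit, scaled for transcript length and depth) of 10 astrocyte markers lay between 12331 and 21700 per library. The same sum was 4814 to 7303 for 10 neuronal markers and 507 to 1437 for 10 microglial markers. It was 2.72 to 11.1 for 8 endothelial markers and 13.5 to 37.5 for 9 mural and fibroblast markers. In that last list Rgs5 of pericytes (7.52 TPM) and the collagen genes Col1a2 (7.15 TPM) and Col1a1 (1.15 TPM) had the highest medians, and the other 6 had medians under 1 TPM. In sorted bulk RNA, fewer cells of a type and less RNA per cell cannot be told apart. Exome-capture probes also affect how well a gene is read, so levels of different genes are approximate.

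The start regions of 4 myelin genes are shown because Mobp, Cnp and Mag had positive fold changes with unadjusted p-values under 0.05 and Mog had a fold change near 0. They are RefSeq sequences on GRCm38.p6, 5′ to 3′ on the gene's own strand, ending before the annotated gene. Mobp lies at chr9:120149492-120149706 (plus strand), Cnp at chr11:100574689-100574903 (plus), Mag at chr7:30914874-30915113 (minus) and Mog at chr17:37023399-37023648 (minus). Capitals mark the SOX-type letters ACAAAG or ACAATG on either strand.
Mobp: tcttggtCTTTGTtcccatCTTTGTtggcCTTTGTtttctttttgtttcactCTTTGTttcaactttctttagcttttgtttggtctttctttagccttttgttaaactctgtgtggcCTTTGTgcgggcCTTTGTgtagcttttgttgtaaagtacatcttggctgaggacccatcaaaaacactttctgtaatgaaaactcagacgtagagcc
Cnp: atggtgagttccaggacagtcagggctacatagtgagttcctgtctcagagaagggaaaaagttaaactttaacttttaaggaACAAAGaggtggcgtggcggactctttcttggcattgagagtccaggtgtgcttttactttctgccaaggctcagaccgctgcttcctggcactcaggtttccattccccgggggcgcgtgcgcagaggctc
Mag: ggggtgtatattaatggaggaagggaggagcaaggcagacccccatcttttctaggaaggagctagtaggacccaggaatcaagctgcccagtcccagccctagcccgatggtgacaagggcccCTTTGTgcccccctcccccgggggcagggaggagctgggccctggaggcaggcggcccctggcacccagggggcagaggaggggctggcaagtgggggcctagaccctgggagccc
Mog: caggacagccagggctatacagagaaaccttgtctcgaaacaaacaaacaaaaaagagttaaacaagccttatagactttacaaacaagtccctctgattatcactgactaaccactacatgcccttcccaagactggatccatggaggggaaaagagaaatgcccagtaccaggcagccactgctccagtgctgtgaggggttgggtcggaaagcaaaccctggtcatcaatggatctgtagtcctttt

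The Mobp stretch holds the SOX-type letters at 6 places, the Cnp and Mag stretches hold them at 1 place each, and the Mog stretch holds none. The 4 genes were chosen by their fold changes. Cldn11, which also had a positive fold change with an unadjusted p under 0.05 by edgeR, is not shown. The letters are therefore a description of these stretches only. Over the 250 bases before the start, 11 of the 24 members in the table (45.8%) hold these letters before any listed start, against 28.2% of 27025 genes. Those 11 include genes with fold changes near 0 or below it, namely Plekhb1, Lpar1, Ermn, Gal3st1 and Tmem88b. The E-box CAGCTG was found in 1 member (4.2%, against 14.7% of genes), and the Gli-type letters GACCACCCA in 0 (against 0.3%). A match is only a run of letters in this window and says nothing of binding.

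Levels spanned about 4 orders of magnitude, and 1 gene made up most of the signal. Mbp, the basic protein that holds the cytoplasmic faces of myelin together (chromosome 18 of mm10, 82475146 to 82585637, plus strand), had a median of 5564 TPM, range 3755 to 7452, and ranked 16 among the 15706 rows with a median above 0. It took 0.976 to 1.86% of all counts in a library and 67.6 to 74.3% of the summed TPM of the 35 genes. The next members by median TPM were Bcas1 at 490, Plekhb1 at 429, Mobp at 278, Car2 at 138, Cnp at 113 and Qdpr at 108, and these 7 were the only members with a median of at least 100 TPM. Mog, the glycoprotein of the outermost myelin layer, had a median of 56.2 TPM. In the 8 libraries the TPM ratio of Mbp to Mog ran from 78.6 to 106. The ratio of Mbp to Mobp ran from 16.5 to 26.8 and that to Plekhb1 from 9.35 to 14.6. Mbp itself varied 1.92-fold in CPM.

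Within the myelin proteins the order after Mbp, Mobp, Cnp and Mog was Mal (49.6 TPM), Pllp (28.8), the tight junction claudin Cldn11 (13.4), the actin-binding Ermn (13.1), Mag (9.86) and Opalin (2.72). The ranges of Cldn11, Ermn and Mag overlapped, so their order is not set by these libraries. Among lipid enzymes, Enpp2 (autotaxin, which makes lysophosphatidic acid) had 72.5 TPM and Ugt8a (which makes galactosylceramide) 58.9 TPM. Fa2h, which hydroxylates the fatty acids of those lipids, had 17.8 TPM, the sulfatide enzyme Gal3st1 5.11 TPM and the N-acetylaspartate-cleaving Aspa 4.31 TPM. Medians of the remaining maturing and mature genes ran from 51.9 TPM for the lysophosphatidic acid receptor Lpar1 down to 1.03 TPM for the receptor Gpr37, with iron-carrying Trf at 20.8 TPM.

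Transcription factors and precursor genes had medians from 0.484 to 37.0 TPM. Olig1 had a median of 37.0 TPM, Sox10 11.3, Nkx2-2 7.999, Olig2 7.70 and Nkx6-2 5.46 TPM, and the ranges of the last 4 overlapped. The precursor receptor Pdgfra had 13.7 TPM and the proteoglycan Cspg4 0.484 TPM. In the committed stage, Bcas1, which marks newly forming myelin, stood 14.6 to 36.8 times above Gpr17 in TPM, and the choline phosphodiesterase Enpp6 had 7.25 TPM. Across stages, the summed TPM per library was 4157 to 8101 for myelin proteins, 360 to 681 for the committed genes, 732 to 1022 for the other maturing and mature genes, 124 to 262 for the lipid enzymes, 49.9 to 90.3 for the transcription factors and 7.21 to 18.7 for the precursor genes. Without Mbp the myelin sum was 402 to 718, which overlapped that of the committed genes.

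**Figure D1:**
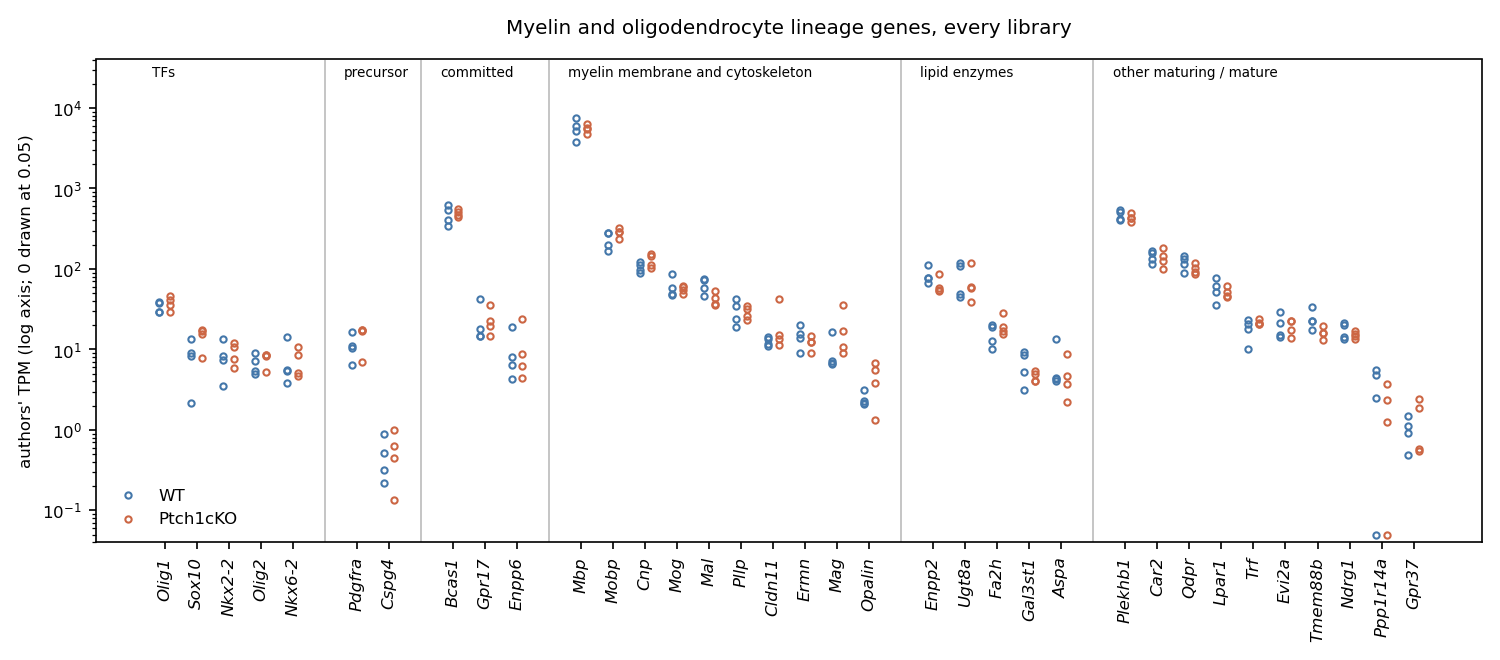
The authors' TPM (vertical log axis) of all 35 genes in each library, 4 WT (blue) and 4 Ptch1cKO (red) circles per gene, grouped by stage or role; values of 0 are drawn at 0.05. Mbp lies between 3755 and 7452 TPM, and Cspg4, Gpr37, Ppp1r14a and Opalin have the 4 lowest medians.

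Between genotypes no member passed the test. On simulated counts, where 115 of 10718 genes were called, it recovered 38% of 2-fold changes. Only 11 of 10954 genes were called here, which makes the adjusted threshold stricter, so that share may be too high for these data. Of the 35 genes, 31 had enough counts, and 0 of these 31 were called in either direction by the quasi-likelihood test of edgeR at an adjusted p under 0.05. Of all genes tested, 0.1% were called (0.0822% higher and 0.0183% lower in Ptch1cKO). Among the 31 members the smallest adjusted p by edgeR was 0.421, for Cnp. DESeq2 called 0 of the 31 and gave no adjusted p to Aspa. It called 0.874% of all genes to which it gave an adjusted p (0.509% higher and 0.365% lower). An unadjusted p under 0.05 was found for 6 members (5 positive and 1 negative fold changes), which is 19.4% of the 31 against 9.34% of all genes tested (4.8% higher and 4.54% lower). Fold changes were positive in 21 members and negative in 10, that is 67.7% positive against 49.6% of all genes (50.4% of all genes were negative), with a median log2 fold change of 0.09 against -0.0019. In none of the 31 did the groups separate fully, which 5.02% of all genes did (2.52% higher and 2.5% lower). The 95% interval of the fold change lay within 2-fold either way for 21 of the 31, a share of 67.7% against 66.4% of all genes.

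Mbp was one of 8 members whose interval lay within 1.5-fold either way. Its levels were 9458, 18166, 12597 and 14230 CPM in WT replicates 1 to 4 and 14428, 12353, 15841 and 16405 CPM in Ptch1cKO replicates 1 to 4. The highest and the lowest library were both WT, so the Ptch1cKO values lay inside the WT range. The fold change was 1.08 (95% interval 0.843 to 1.39; edgeR, Benjamini-Hochberg adjusted p = 0.885). Mog had 29.6, 51.4, 29.2 and 33.6 CPM in WT and 35.1, 31.1, 41.1 and 39.7 CPM in Ptch1cKO, with overlapping groups and a fold change of 1.02 (95% interval 0.750 to 1.39).

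Other structural myelin genes held 5 of the 6 unadjusted p-values under 0.05. Mobp, a basic protein of compact myelin (chromosome 9, 120149707 to 120181484, plus strand), had 274, 446, 323 and 431 CPM in WT and 402, 491, 529 and 550 CPM in Ptch1cKO. Only Ptch1cKO replicate 1 fell among the WT values, and the log2 fold change was 0.42 (SE 0.16, unadjusted p = 0.0188, adjusted p = 0.432 by edgeR). Cnp, an enzyme of the cytoplasm-filled parts of myelin (chromosome 11, 100574904 to 100591729, plus strand), had 88.0, 115, 94.3 and 105 CPM in WT and 115, 146, 116 and 157 CPM in Ptch1cKO. The groups met at WT replicate 2 and Ptch1cKO replicate 1, and the log2 fold change was 0.41 (SE 0.15, unadjusted p = 0.0168). An exon of Cnp overlaps Dnajc7 on the opposite strand and an exon of Mobp overlaps Gm38642 on its own strand, and no source used here gives the strand setting of the counting.

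Mag and Cldn11 had larger fold changes that leaned on Ptch1cKO replicate 4. Mag, an adhesion protein on the axon-facing side of myelin (chromosome 7, 30899176 to 30914873, minus strand), had 5.89, 14.3, 5.87 and 5.97 CPM in WT and 9.80, 8.34, 17.2 and 32.4 CPM in Ptch1cKO. WT replicate 2 lay above Ptch1cKO replicates 1 and 2, and the log2 fold change was 1.07 (SE 0.43, unadjusted p = 0.0260, adjusted p = 0.460 by edgeR), or 0.54 without Ptch1cKO replicate 4. Cldn11 (chromosome 3, 31149920 to 31164324, plus strand) had 8.07, 8.80, 7.27 and 9.26 CPM in WT and 7.95, 9.38, 11.6 and 30.1 CPM in Ptch1cKO. The log2 fold change of Cldn11 was 0.82 (SE 0.37, unadjusted p = 0.0443) and came to 0.20 without that library. Without the count filter, edgeR called Mag (Benjamini-Hochberg adjusted p = 0.0325), 1 of 35 members, when it called 199 of 20578 genes in all.

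Mal, a small membrane protein of myelin trafficking (chromosome 2, 127633226 to 127656695, minus strand), was the member with an unadjusted p under 0.05 in the other direction. It had 46.9, 72.9, 57.7 and 72.7 CPM in WT and 38.6, 46.4, 41.1 and 56.5 CPM in Ptch1cKO. Ptch1cKO replicate 4 lay above WT replicate 1, and the log2 fold change was -0.45 (SE 0.19, unadjusted p = 0.0287, adjusted p = 0.474 by edgeR). Of the myelin proteins left, Pllp and Ermn had log2 fold changes of 0.05 and -0.14. Mobp and Cnp on one side and Mal on the other thus had opposite signs in the same libraries, and their difference was not tested.

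**Figure D2:**
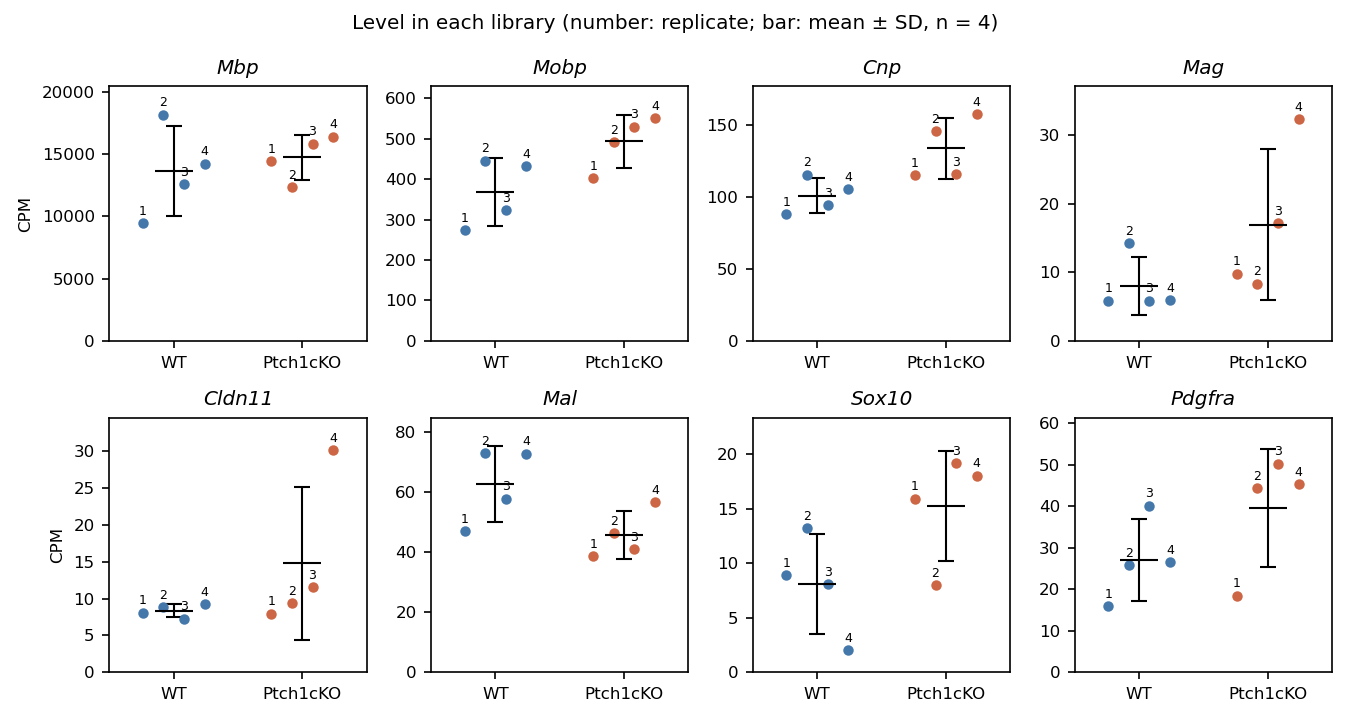
CPM of 8 member genes in each library (linear axes from 0), with the replicate number above each point and the mean ± SD (n = 4) in black. Ptch1cKO replicate 4 stands at 30.1 CPM for Cldn11 and 32.4 CPM for Mag, above every other library.

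The lineage transcription factors all had positive fold changes, 5 of 5, and none was called by edgeR. Sox10, which binds the control regions of many myelin genes (chromosome 15, 79154908 to 79165240, minus strand), had 8.92, 13.2, 8.11 and 2.06 CPM in WT and 15.9, 7.99, 19.2 and 18.02 CPM in Ptch1cKO. WT replicate 4 was the lowest and Ptch1cKO replicate 2 lay below 3 of the WT libraries, and the log2 fold change was 0.90 (SE 0.415, unadjusted p = 0.0474, adjusted p = 0.529 by edgeR). Without WT replicate 4 it was 0.59. Olig2 (chromosome 16, 91225457 to 91228677, plus strand) had 4.88, 4.24, 7.83 and 5.97 CPM in WT and 4.83, 7.65, 8.61 and 7.93 CPM in Ptch1cKO, with overlapping groups and a fold change of 1.26 (95% interval 0.790 to 1.995). Olig1, its neighbour and relative, had 22.0 to 29.8 CPM in WT and 26.3 to 37.5 CPM in Ptch1cKO. The Hedgehog-responsive homeobox genes Nkx2-2 and Nkx6-2 had log2 fold changes of 0.26 (SE 0.37) and 0.09 (SE 0.44), with exons of Nkx2-2os and Inpp5a on the opposite strand. That of Nkx2-2 ran from 0.0182 without WT replicate 1 to 0.64 without WT replicate 3. In the 6 libraries with under 10 Xist counts it was 0.89 (unadjusted p = 0.0523, adjusted p = 0.640 by edgeR). The other transcription factors did not share a direction there: log2 fold changes were -0.25 for Nkx6-2, 0.41 for Olig2, 0.48 for Olig1 and 1.44 for Sox10.

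Pdgfra (chromosome 5, 75152292 to 75198215, plus strand) was the tested precursor gene. It had 15.98, 25.8, 40.1 and 26.6 CPM in WT and 18.5, 44.3, 50.2 and 45.3 CPM in Ptch1cKO. In Ptch1cKO, 3 libraries lay above all WT libraries and replicate 1 lay below 3 of the 4 WT libraries, with a fold change of 1.45 (95% interval 0.915 to 2.30; edgeR, Benjamini-Hochberg adjusted p = 0.638). The summed TPM of mural and fibroblast markers, cells that can also make Pdgfra, was 13.8 to 37.5 in WT and 13.5 to 25.6 in Ptch1cKO. Within that list Col1a2 had the same sign as Pdgfra (log2 fold change 1.24) and Rgs5 the opposite sign (-1.46), and their part in the Pdgfra values was not tested. Committed-stage genes also overlapped. Bcas1 (chromosome 2, 170346991 to 170427845, minus strand) had 459, 686, 381 and 575 CPM in WT and 519, 547, 661 and 649 CPM in Ptch1cKO, a fold change of 1.13 (95% interval 0.887 to 1.44). Gpr17 and Enpp6 had log2 fold changes of 0.15 (SE 0.34) and 0.30 (SE 0.52), and that of Enpp6 was -0.43 without Ptch1cKO replicate 4.

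Lipid enzymes had negative fold changes in 4 of 5 genes, none with an unadjusted p under 0.05 by edgeR. Enpp2 (chromosome 15, 54838901 to 54952892, minus strand) had 107, 147, 104 and 86.7 CPM in WT and 76.8, 74.7, 88.6 and 123 CPM in Ptch1cKO, with overlapping groups and a fold change of 0.818 (95% interval 0.615 to 1.09). Fa2h was the one positive gene, at 0.48 (SE 0.28). Among the other maturing and mature genes, Plekhb1, a membrane-binding adaptor (chromosome 7, 100642892 to 100662414, minus strand), had the smallest spread of the 31, with 351, 433, 352 and 447 CPM in WT and 347, 388, 420 and 445 CPM in Ptch1cKO. Its fold change was 1.01 (95% interval 0.835 to 1.22). In this group 4 fold changes were positive and 4 negative, from -0.45 for Tmem88b to 0.40 for Trf, and all 8 intervals lay within 2-fold.

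The 4 members below the count filter had 0 to 18 counts per library. Cspg4 was counted 16, 6, 11 and 3 times in the WT libraries and 3, 8, 14 and 12 times in the Ptch1cKO libraries, a pooled ratio of 1.09 (95% exact interval 0.671 to 1.78, covering counting error only). Opalin, a glycoprotein of mature oligodendrocytes, was counted 4, 6, 5 and 3 times in WT against 3, 7, 8 and 13 times in Ptch1cKO, a ratio of 1.83 (0.991 to 3.47). Gpr37 summed to 28 counts over the WT libraries and 39 over the Ptch1cKO libraries, and the phosphatase inhibitor Ppp1r14a summed to 14 and 8, with 0 counts in WT replicate 4 and Ptch1cKO replicate 2. Exact two-sided permutation tests over 70 assignments gave p = 0.657, 0.143, 0.457 and 0.457 for Cspg4, Opalin, Gpr37 and Ppp1r14a (Benjamini-Hochberg adjusted p = 0.571 or more over these 4). The smallest p such a test can give with 4 against 4 libraries is 0.0286.

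**Figure D3:**
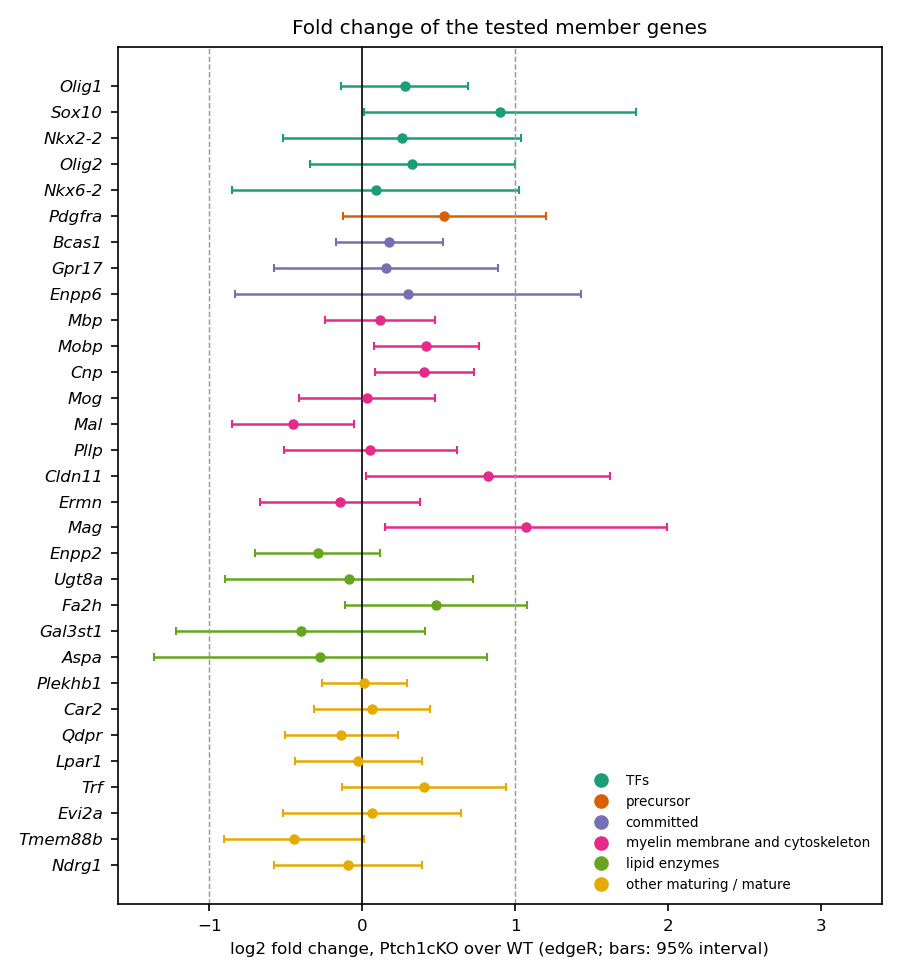
log2 fold change of Ptch1cKO over WT for the 31 tested members with 95% intervals from edgeR (horizontal axis), coloured by stage or role; dashed lines mark 2-fold. Intervals of 21 genes stay between the dashed lines, and Mag has the largest value at 1.07.

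Libraries of the same genotype differed among themselves, and 1 library in each group was often the highest. WT replicate 2 had the highest CPM of its group in 17 of 31 members (54.8%, against 22.2% of all genes tested), among them Mbp, Mog, Mag, Mobp, Cnp, Mal, Gpr17, Bcas1 and Ugt8a. Ptch1cKO replicate 4 was likewise highest in 17 of 31 (54.8%, against 19.5% of all genes) and lowest in 0. WT replicate 1 was lowest of its group in 15 members and Ptch1cKO replicate 1 in 14 (48.4% and 45.2%, against 22.3% and 24.3% of all genes). Ugt8a shows it within each genotype: it had 59.4, 153, 63.5 and 136 CPM in WT and 80.1, 82.2, 58.8 and 166 CPM in Ptch1cKO. The median SD of log2 CPM within groups was 0.36 for the 31 members and 0.35 for all genes, and it ran from 0.17 for Plekhb1 to 0.94 for Enpp6.

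The balance of signs moved with these libraries. Without Ptch1cKO replicate 4, 15 of 31 members had positive fold changes (48.4%, against 49.9% of all genes in that fit), and 0 of the 3 with an unadjusted p under 0.05 (9.68%, against 6.83%) were higher in Ptch1cKO. Without WT replicate 1, 17 of 32 were positive (53.1%, against 50.2%), and both members with an unadjusted p under 0.05 (6.25%, against 9.27%) were lower. Without WT replicate 2, 22 of 32 were positive (68.8%, against 49.5%) and 5 had an unadjusted p under 0.05 (15.6%, against 8.83%), all higher. WT replicates 2 and 3 also held 1148 and 612 Xist counts, the female pattern, and the other 6 libraries held at most 4. Within those 6 libraries, 24 of 34 tested members were positive (70.6%, against 50.4% of all genes there). An unadjusted p under 0.05 was found for 5 (14.7%, against 7.91%), all higher, and edgeR called 0 of 34 (3 genes in all). The deposited column names carry prefixes that never span both genotypes, so what they mark and genotype cannot be told apart.

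**Figure D4:**
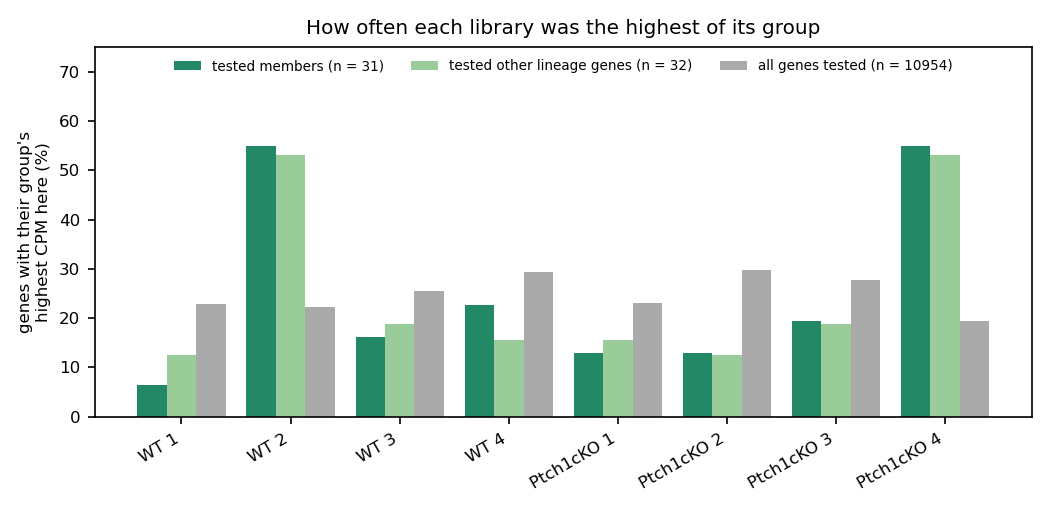
Share of genes (vertical axis, percent) for which each library had the highest CPM of its own group of 4, for the 31 tested members, 32 other genes of the lineage and all 10954 genes tested. WT replicate 2 and Ptch1cKO replicate 4 reach 54.8% for the members.

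Another 43 genes of the lineage, listed apart from the 35, mostly overlapped between genotypes as well. Of the 32 with enough counts, edgeR and DESeq2 called 0, and DESeq2 gave no adjusted p to Zfp488, Apod and Gjb1. By edgeR, 3 (9.38%, against 9.34% of all genes) had an unadjusted p under 0.05. Fold changes were positive in 17 (53.1%, against 49.6% of all genes) and negative in 15. Within WT, 17 of the 32 (53.1%, against 22.2% of all genes) were highest in replicate 2. Groups did not overlap in 2 of the 32, C1ql1 and Pex5l, and in 5.02% of all genes tested. Sirt2, a deacetylase abundant in myelin, had 337, 502, 345 and 385 CPM in WT and 516, 482, 566 and 601 CPM in Ptch1cKO, and its log2 fold change was 0.46 (SE 0.14, adjusted p = 0.325 by edgeR). The secreted C1q-like protein C1ql1 of precursors had 42.4, 62.4, 55.2 and 18.3 CPM in WT and 78.4, 63.1, 82.2 and 72.4 CPM in Ptch1cKO. Its groups did not overlap, and the log2 fold change was 0.72 (SE 0.28, adjusted p = 0.438 by edgeR). Without the count filter C1ql1 was called (edgeR, Benjamini-Hochberg adjusted p = 0.0198), 1 of the 43, against 199 of 20578 genes in all. Pex5l, a regulator of HCN channels that neurons also make, had 109 to 159 CPM in WT and 88.5 to 105 CPM in Ptch1cKO, groups that did not overlap either (log2 fold change -0.46, SE 0.15, adjusted p = 0.349 by edgeR). The tetraspanin Tspan2 had 94.7 to 193 and 94.9 to 135 CPM.

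Markers of other cell types moved beside these genes to different degrees. All 10 microglial markers had positive fold changes (median log2 0.65), 2 of them with an unadjusted p under 0.05 by edgeR and 0 called. Their summed TPM was 507 to 984 in WT and 572 to 1437 in Ptch1cKO, highest in Ptch1cKO replicate 3. Neuronal markers were positive in 4 of 10 (5225 to 7303 TPM summed in WT, 4814 to 5614 in Ptch1cKO), and astrocyte markers in 7 of 10 (15657 to 21700 and 12331 to 20554). Of the mural and fibroblast markers 3 of 9 had enough counts, and edgeR called 0. Rgs5 averaged 9.75 ± 5.82 CPM (SD, n = 4) over the WT libraries against 3.48 ± 1.72 CPM over the Ptch1cKO libraries (log2 fold change -1.46, SE 0.44, unadjusted p = 0.00477). Col1a2 had 9.17 ± 4.58 and 21.9 ± 10.7 CPM (1.24, SE 0.37, unadjusted p = 0.00480), the adjusted p of both was 0.325 by edgeR, and Col1a1 was at -0.16. The part of these cell types in the member values was not tested.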

How the data were processed

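RNA of 8 libraries was measured after exome capture, per the labels' protocols. The deposited counts are whole reads per gene symbol, and the second table holds TPM computed by the authors; bcl2fastq 2.18, STAR 2.5 and the build mm10 are named per the submitters' processing notes. No source used here names the counting program, the annotation or the strand setting. Tests ran in edgeR 4.0.16 under R 4.3.3: filterByExpr (minimum count 10), TMM scaling, quasi-likelihood F test with robust estimation over all 10954 genes kept, group as the only term, Benjamini-Hochberg adjustment over all genes. SE is the log2 fold change divided by the square root of F. DESeq2 1.42.0, RLE scaling, no filter, a replicate block, each library left out and the 6 libraries with under 10 Xist counts were alternatives. On simulated counts the test recovered 8% of 1.5-fold, 38% of 2-fold, 80% of 3-fold and 88% of 4-fold changes. It made 8 false calls among 115. The real counts gave 11 calls, so the threshold was stricter there and these shares may be too high for them. Stage means use log2 CPM with a prior count of 2. No 2 libraries of the same genotype agreed within sampling noise (chi-square per degree of freedom at least 11.6), and pairs across genotypes were not compared. Gene positions are GENCODE M21 on GRCm38, where all 35 symbols matched 1 gene, and exons of 12 overlap a gene on the opposite strand. Start-region sequences are from RefSeq (24 of 35 members).

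The members and lists were chosen with earlier results of these data known. The naming rule took all 35 members, with per-library values for the member with the highest median TPM in each role, Mbp, Olig2 and Pdgfra. It asked for the same for called or non-overlapping members and those below the filter. Of the other lineage genes it took the 4 with the smallest p. Olig1, Pex5l and Tspan2 were given as ranges only, and Gpr37 and Ppp1r14a as sums over each genotype. Mobp, Cnp, Mag, Cldn11, Mal, Sox10, Mog and Ugt8a were given by library after their values were seen, and the markers Rgs5, Col1a1 and Col1a2 were named after theirs were seen. Replicate numbers are those of the titles; the descriptions number Ptch1cKO replicates 3 and 4 as 4 and 5.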

Additional observations from a re-analysis of the deposited data

Results flagged for a closer look

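In 4 of 70 gene-by-genotype groups of 4 libraries, 1 library stood apart from the others (gap to the nearest library over the group's range above Dixon's 95% critical value), and chance flags about 1 in 20. Gpr17 had 79.7 CPM and Mag 14.3 CPM in WT replicate 2, where the next WT library had 35.3 and 5.97 CPM. Cldn11 had 30.1 CPM in Ptch1cKO replicate 4, where the next had 11.6 CPM. Aspa had 6.9996 CPM in WT replicate 4, where the next had 2.38 CPM.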

How the results depend on the processing

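The count of members called stayed at 0 with RLE scaling, DESeq2, the replicate block, every single library left out and the 6 libraries with under 10 Xist counts, and was 1 without the count filter (Mag), as was that of the other lineage genes (1, C1ql1). Over all genes the count was 11 of 10954, against 199 of 20578 without the filter. It was 79 with DESeq2, 5 with the replicate block, 3 in those 6 libraries and 1 to 19 with 1 library left out. The replicate numbers gave no sign of pairing: deviations of same-numbered libraries correlated at -0.17 to 0.02. No WT library matched the Ptch1cKO library of its own number best. Whether libraries were collected or processed in pairs cannot be told from these values. By the numbers of the descriptions the shared pairs 1, 2 and 4 correlated at 0.02, -0.17 and -0.09. Of 31 tested members, 16 kept their sign under every alternative. In the 6 libraries the sign turned for Nkx6-2 (-0.25), Gal3st1 (0.27), Car2 (-0.12) and Ndrg1 (0.24, log2 fold change), and with the replicate block for Lpar1 (0.0099). With 1 library left out, log2 fold changes ran from -0.14 to 0.67 for Nkx6-2, -0.11 to 0.66 for Gpr17, -0.43 to 0.91 for Enpp6, -0.0246 to 0.29 for Mbp, -0.0629 to 0.25 for Mog, -0.12 to 0.26 for Pllp, -0.31 to 0.0211 for Ermn, -0.48 to 0.17 for Ugt8a, -0.71 to 0.29 for Aspa, -0.0761 to 0.16 for Car2, -0.0394 to 0.0777 for Plekhb1, -0.19 to 0.0276 for Ndrg1, -0.18 to 0.13 for Lpar1 and -0.0577 to 0.31 for Evi2a. Differences of stage means (Ptch1cKO minus WT, log2 CPM) were 0.44 for transcription factors, 0.52 for Pdgfra, 0.22 for committed genes, 0.24 for myelin proteins, -0.08 for lipid enzymes and 0.00 for the remaining genes, and no alternative moved one by more than 1 within-group SD. The cause of these changes was not tested. The 4 members below the filter have wide counting intervals.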
